A study of Mus musculus with 6 samples.

Results

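Thalamic and habenular neuron genes were followed in hippocampal RNA from mice with a controlled cortical impact and from sham-operated mice. The members were 10 genes listed by name as enriched in the thalamus or habenula: Tcf7l2, Prkcd, Lef1, Rgs16, Synpo2, Ramp3, Plekhg1, Tac3, Gpr151 and Pou4f1. They were found among 52550 listed genes by their Ensembl identifiers without the version. Tac3 is a synonym of the mouse gene Tac2 in RefSeq, and the annotation carries it as Tac2. All 10 passed the filter on low counts, which kept 18795 genes.

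All animals were male C57BL/6 mice aged 8 to 10 weeks. TBI mice received an impact through a craniotomy over the right parietal cortex, and sham mice had the same surgery with no impact. The whole hippocampus was taken after 24 h, and 1 library was made per mouse, with 3 sham (Sham1 to Sham3) and 3 TBI (TBI1 to TBI3) libraries. The comparison asks which genes differ in the hippocampus 1 day after injury. The deposited values were estimated counts per gene, with totals of 31630936 to 41771872 per library. Levels are given as counts per 1000000 counts of the library (CPM), with the totals scaled by TMM (trimmed mean of M-values) factors of 0.970 to 1.02.

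The dorsal thalamus lies directly beneath the hippocampus, and the habenula sits at the dorsal and medial edge of the thalamus. Neither belongs to the hippocampus. The thalamus relays sensory and motor signals to the cortex through glutamatergic neurons, and the medial habenula projects to the interpeduncular nucleus with neurons that use acetylcholine, glutamate and neuropeptides. Tcf7l2 and Lef1 encode transcription factors of the TCF/LEF family, which act with β-catenin downstream of Wnt signals and bind DNA at sites with the core letters CTTTGA or CTTTGT.

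Positions are those of GENCODE on GRCm38. Tcf7l2 lies on the forward strand of chr19:55741820-55933654 and Lef1 on the forward strand of chr3:131110471-131224356. Pou4f1 (chr14:104461676-104467999) and Prkcd (chr14:30595354-30626210) lie on the reverse strand of the same chromosome. Rgs16 (chr1:153740349-153745468), Ramp3 (chr11:6658521-6677475), Plekhg1 (chr10:3740364-3967303) and Tac2 (chr10:127724478-127731768) are on the forward strand. Synpo2 (chr3:123076519-123236149) is on the reverse strand, and Gpr151 is placed where it is described.

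Because 2 members are TCF/LEF factors, the promoters were searched for their core letters. RefSeq held 14 promoter windows on GRCm38.p6 for 9 of the 10 members, each with 250 bases before and 50 bases after a transcription start. CTTTGA or CTTTGT on either strand occurred in 5 of the 14 windows (35.7%), which belonged to 4 of the 9 genes (44.4%), and in 10249 of 32851 windows of all genes (31.2%). The search letters do not overlap each other. The 4 stretches shown are the 250 bases before the start, in the direction of the gene, with each match in capitals. They are those of 3 members that followed each other across libraries (Prkcd, Tcf7l2 and Lef1) and of 1 that did not (Tac2).
Prkcd, chr14:30626209-30626458, reverse strand: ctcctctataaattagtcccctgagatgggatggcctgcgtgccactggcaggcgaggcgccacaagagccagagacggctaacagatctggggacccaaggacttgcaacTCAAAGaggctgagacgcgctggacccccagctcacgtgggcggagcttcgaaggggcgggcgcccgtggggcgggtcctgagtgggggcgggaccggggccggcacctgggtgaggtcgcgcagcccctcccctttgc
Tcf7l2, internal start, chr19:55895071-55895320, forward strand: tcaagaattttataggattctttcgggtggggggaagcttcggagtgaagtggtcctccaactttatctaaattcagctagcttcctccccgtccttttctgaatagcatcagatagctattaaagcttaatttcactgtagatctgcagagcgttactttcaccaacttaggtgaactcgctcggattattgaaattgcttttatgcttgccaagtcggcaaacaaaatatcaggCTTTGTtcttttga
Lef1, internal start, chr3:131156044-131156293, forward strand: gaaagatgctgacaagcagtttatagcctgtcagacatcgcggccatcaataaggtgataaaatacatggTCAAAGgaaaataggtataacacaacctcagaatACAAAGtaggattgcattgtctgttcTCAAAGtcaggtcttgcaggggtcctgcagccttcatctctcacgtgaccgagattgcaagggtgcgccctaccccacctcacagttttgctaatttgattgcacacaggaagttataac
Tac2, chr10:127724228-127724477, forward strand: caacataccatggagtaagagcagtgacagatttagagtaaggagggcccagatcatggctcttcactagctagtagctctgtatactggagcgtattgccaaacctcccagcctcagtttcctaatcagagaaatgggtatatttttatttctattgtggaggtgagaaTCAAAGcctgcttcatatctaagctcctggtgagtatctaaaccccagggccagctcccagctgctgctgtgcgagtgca

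The Prkcd stretch held 1 match on the opposite strand (TCAAAG), 139 bases before the start. The Tcf7l2 stretch held CTTTGT on the same strand, 14 bases before a start that lies 153501 bases inside the gene and outside its annotated exons. The Lef1 stretch held 3 matches on the opposite strand, 180, 146 and 120 bases before a start 45823 bases inside the gene. The Tac2 stretch held 1 match 80 bases before the start. The other 3 windows of Lef1, which include both at its 5′ end, held no match, and neither did the windows at the 5′ ends of Tcf7l2, Rgs16, Synpo2, Ramp3 and Pou4f1 or that of Plekhg1. A further window inside Prkcd held 1 match. A match is a run of letters, and the counts do not show which start was used.

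The libraries were first compared by lists of genes that mark regions and cell types. TBI1 stood apart: its summed level of 7 striatal genes, led by Ppp1r1b, Penk, Rgs9 and Adora2a, was 3865 CPM, against 145 to 209 CPM in the other 5 libraries. The sum of 10 hippocampal neuron genes was 669 CPM in TBI1 and 792 to 1146 CPM in the others. In that list C1ql2, a gene of dentate granule neurons, was at 2.45 CPM in TBI1 and at 39.6 to 86.0 CPM elsewhere. Wfs1 went the other way, at 275.6 CPM in TBI1 and 64.4 to 175.4 CPM elsewhere. Calb1 was at 215.3 CPM in TBI1, below its 492.7 CPM in TBI3 but above all others. It was at 128.3, 142.7 and 136.9 CPM in the sham libraries in order and at 111.0 CPM in TBI2. The mean log2 CPM of the 10 genes, relative to the mean of the 6 libraries, was -1.65 in TBI1 and -0.047 to 0.812 in the others. Sham2 stood apart as well. Pearson's r of its log2 CPM with the other libraries, across all genes tested, was 0.929 to 0.947, and that of TBI1 was 0.938 to 0.949. Timp1, an inhibitor of metalloproteinases that is induced by injury, was at 76.8 CPM in Sham2 and at 0 to 8.89 CPM in the other 5. The differences between groups are therefore given also without TBI1 and without Sham2. Sham2 had the lowest sum of 8 oligodendrocyte genes (2726 CPM, against 7905 to 9912 CPM in the others) and of 8 choroid plexus genes (54.4 CPM).

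Tcf7l2, the TCF/LEF factor that marks thalamic and medial habenular neurons in the adult brain, was at 15.1, 4.14 and 55.2 CPM in Sham1, Sham2 and Sham3. In TBI1, TBI2 and TBI3 it was at 6.64, 49.9 and 73.0 CPM. The 2 groups overlapped, since Sham3 stood with TBI2 and TBI3 at a high level and TBI1 with Sham1 and Sham2 at a low one. The range was 13.3-fold within the sham group and 11.0-fold within the TBI group. The mean was 24.8 ± 26.9 CPM (SD, n = 3) in sham mice and 43.2 ± 33.7 CPM (SD, n = 3) in TBI mice. TBI differed from sham by a log2 fold change of 0.80 (SE 1.07, 95% interval -1.75 to 3.35), with an adjusted p = 0.982 by edgeR's quasi-likelihood test. It was 1.31 without TBI1, 0.30 without Sham2, 0.17 without TBI3 and 2.15 without Sham3.

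Lef1, the other TCF/LEF factor, was at 8.27, 4.91 and 15.9 CPM in the sham libraries in order and at 5.44, 12.9 and 17.1 CPM in the TBI libraries. Its groups overlapped with the same 3 libraries high, over a smaller range (3.49-fold). The log2 fold change was 0.28 (95% interval -1.03 to 1.59, edgeR adjusted p = 0.984). An antisense gene, Gm43352, shares 1208 of the 8788 exonic bases of Lef1 (13.7%). Its own counts were 102, 84 and 224 in sham and 63, 146 and 239 in TBI libraries, the same order of high and low libraries apart from TBI1 and Sham2. Since the strandedness of the libraries is not given in the sources used here, reads over the shared stretch cannot be told apart between Lef1 and Gm43352.

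Pou4f1, a POU-domain factor of medial habenular neurons, had the lowest level of the 10 per length of exon. It was at 0.40, 0.12 and 4.48 CPM in the sham libraries, from counts of 16, 5 and 172. In the TBI libraries it was at 0.51, 1.80 and 4.72 CPM, from counts of 21, 57 and 168. Sham3 and TBI3 were nearly level, and the highest library was 37.9 times the lowest, the widest range of the 10 members. The log2 fold change of 0.49 had a 95% interval of -2.63 to 3.61 (edgeR adjusted p = 0.985).

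Prkcd encodes protein kinase C delta and is abundant in thalamic relay neurons. It was at 50.5, 16.6 and 109.7 CPM in Sham1, Sham2 and Sham3. In TBI1, TBI2 and TBI3 it was at 14.5, 95.8 and 134.8 CPM. TBI1 lay below every sham library and TBI3 above every one. Sham mice averaged 58.9 ± 47.1 CPM and TBI mice 81.7 ± 61.4 CPM (SD, n = 3 each). The difference was a log2 fold change of 0.47 (SE 0.889, 95% interval -1.65 to 2.60, edgeR adjusted p = 0.984). It was 0.97 without TBI1, 0.03 without Sham2, -0.11 without TBI3 and 1.27 without Sham3.

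Rgs16, which encodes an activator of the GTPase of G protein alpha subunits, was at 19.6, 17.3 and 50.7 CPM in sham libraries and at 7.69, 39.5 and 45.0 CPM in TBI libraries. Sham3 was the highest library and TBI1 the lowest. The means were 29.2 ± 18.7 and 30.7 ± 20.1 CPM (SD, n = 3 each), with a log2 fold change of 0.074 (95% interval -1.58 to 1.73, edgeR adjusted p = 0.996). It was 0.53 without TBI1 and 0.73 without Sham3, and negative without each of the others, at -0.15 without Sham1 and -0.19 without Sham2. The antisense gene Gm28513 shares 236 of its 2339 exonic bases (10.1%).

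Ramp3 encodes a protein that joins the calcitonin receptor-like receptor and sets its preference for adrenomedullin. It was at 15.2, 3.79 and 36.8 CPM in sham and at 8.26, 32.5 and 51.6 CPM in TBI libraries. The groups overlapped, with Sham2 lowest and TBI3 highest (13.6-fold). The log2 fold change was 0.73 (95% interval -1.40 to 2.85, edgeR adjusted p = 0.982). It was 1.18 without TBI1, 0.24 without Sham2, 0.12 without TBI3 and 1.68 without Sham3. The antisense gene Gm11978 shares 101 of its 1380 exonic bases and had at most 6 counts in any library. The receptor gene Calcrl varied far less, from 5.49 CPM in TBI1 to 8.22 CPM in TBI2. Of 7 partner and ligand genes (Ramp1, Ramp2, Calcrl, Calcr, Adm, Calca and Calcb), 5 were tested, 1 was higher in TBI by sign and 4 lower, and 0 passed an unadjusted p of 0.05. None of these 5 had Sham3, TBI2 and TBI3 as its 3 highest libraries.

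Gpr151, an orphan receptor of habenular projection neurons (chr18:42577881-42579652, reverse strand), had another order. It was at 1.36, 4.09 and 10.7 CPM in sham libraries, and at 1.13, 0.95 and 5.79 CPM in TBI libraries. Sham3 and TBI3 were again the 2 highest, but TBI2 was the lowest of the 6. The log2 fold change was -1.03 (SE 0.948, 95% interval -3.30 to 1.23, edgeR adjusted p = 0.982). It was -0.06 without Sham3 and -2.37 without TBI3.

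Tac2, the precursor of neurokinin B, was at 2.89, 5.76 and 8.99 CPM in sham and at 7.18, 3.38 and 3.26 CPM in TBI libraries. Sham3 and TBI1 were the 2 highest libraries and Sham1 and TBI3 the 2 lowest. Between groups the log2 fold change was -0.35 (95% interval -1.55 to 0.85, edgeR adjusted p = 0.983). Among the other tachykinins and their receptors, Tac1 was at 201.0 CPM in TBI1 and at 10.7 to 16.7 CPM in the rest, and Tacr1 at 20.7 CPM in TBI1 and 1.21 to 3.44 CPM in the rest. Both are also expressed in the striatum. Tacr3, the receptor for neurokinin B, ranged from 0.889 CPM in Sham1 to 5.34 CPM in TBI1.

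Synpo2, an actin-binding protein, was at 12.8, 3.44 and 40.7 CPM in sham and at 19.7, 33.3 and 22.0 CPM in TBI libraries. Its TBI libraries lay within 1.69-fold of each other and all within the sham range. Their log2 fold change against sham was 0.40 (95% interval -1.46 to 2.26, edgeR adjusted p = 0.984).

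Plekhg1, which encodes an exchange factor for small GTPases, came nearest to a difference. It was at 16.9, 9.25 and 23.7 CPM in sham libraries and at 13.4, 51.7 and 38.3 CPM in TBI libraries. TBI2 and TBI3 lay above every sham library and TBI1 below all but Sham2. The log2 fold change was 1.05 (SE 0.539, 95% interval -0.24 to 2.34), with an edgeR adjusted p = 0.982. DESeq2 with its defaults gave an adjusted p = 0.867. Without TBI1 the adjusted p was 0.158 by DESeq2 and 0.906 by edgeR. Without Sham2 it was 0.9998 by DESeq2 and 0.997 by edgeR. The DESeq2 fits with a library left out were added after seeing the data.

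**Figure D1:**
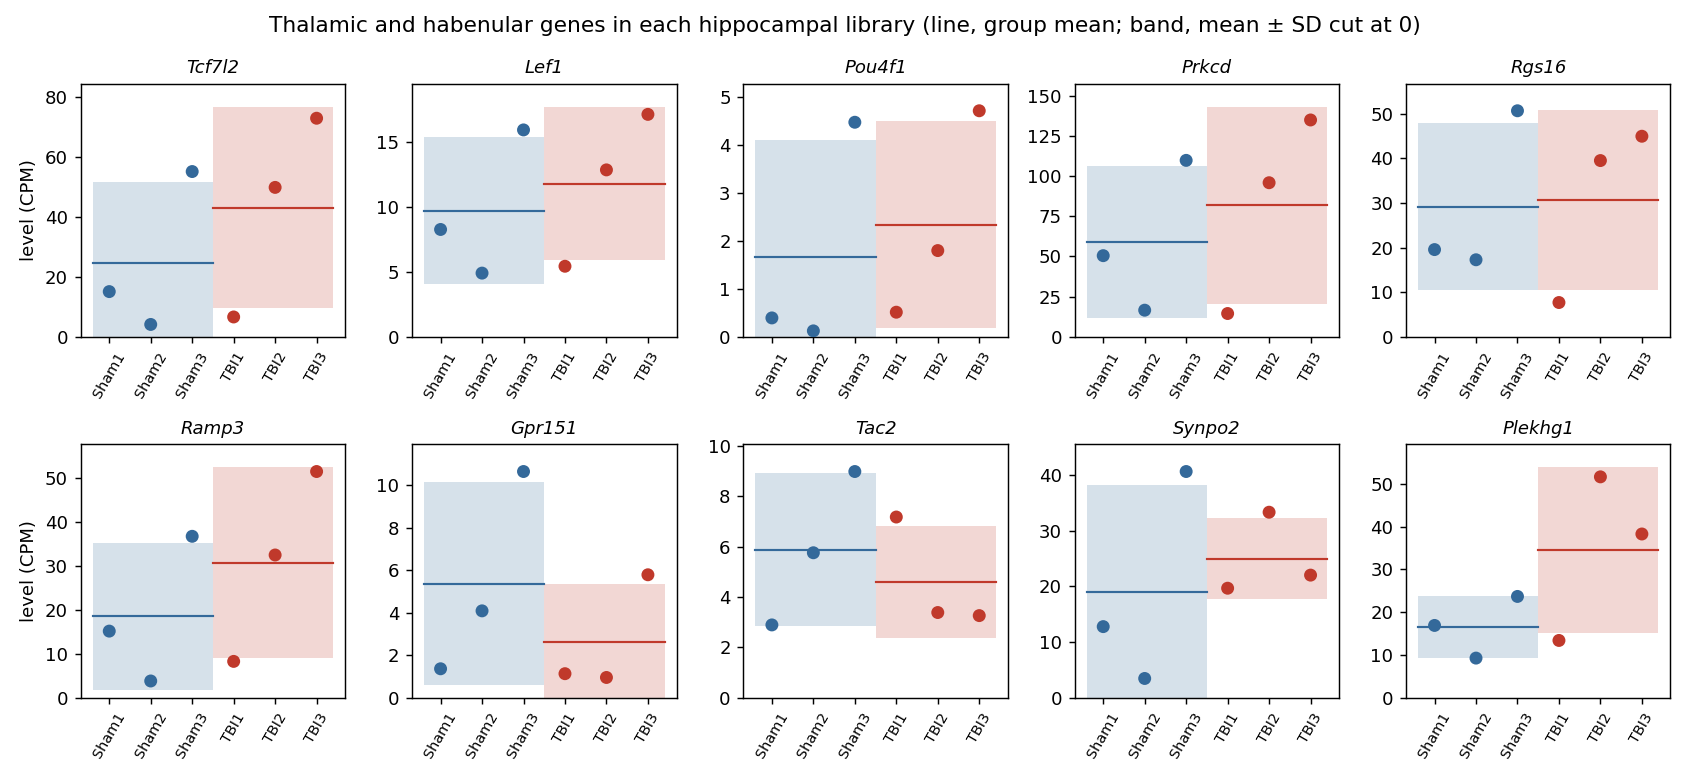
Level of each of the 10 genes in CPM (vertical axis, a scale of its own in each panel) in the 3 sham (blue) and 3 TBI (red) libraries, each point 1 library. Lines are group means and bands the mean ± SD, cut at 0. In 8 panels Sham3, TBI2 and TBI3 are the 3 highest points, and Gpr151 and Tac2 differ from that order.

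Over the list, 0 of 10 members were called between TBI and sham. A call needed a fold change over 1.5 in either direction, p below 0.05 and, after adjustment over all genes, p below 0.1. By edgeR 0 of the 18795 genes tested (0%) met this rule. At an unadjusted p of 0.05, 0 members passed, and 806 of all genes did (4.29%). DESeq2 with its defaults called 46 of 20786 genes (0.221%) and 0 members, with 1 member (Plekhg1) at an unadjusted p under 0.05. In 0 of 10 members were the groups free of overlap in CPM, against 10.2% of all genes. Exact permutation of 3 against 3 libraries cannot give a two-sided p below 0.1.

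By sign, 8 members were higher in TBI and 2 lower, where 51.4% of all genes were higher. In the same fit 7 of 7 striatal genes were higher (median log2 fold change 3.54) and 8 of 10 hippocampal neuron genes lower (median -0.91). Without TBI1 the log2 fold changes of the 7 striatal genes ran from -0.91 to 1.22 by edgeR. The part of both lists in the members' values was not tested. The median log2 fold change of the members was 0.44, and that of all genes tested 0.0091. The median turned negative without Sham2 and without TBI3, and stayed positive with any other library left out. It was 0.18 without Sham1 and 0.27 without TBI2, each with 7 members higher. Without TBI1 the median was 0.80 with 8 members higher, without Sham3 it was 1.33 with 9 higher, and without Sham2 it was -0.047 with 4 higher. Without TBI3 it was -0.10, also with 4 higher. Of the members whose value without TBI1 is not given above, Lef1 was then at a log2 fold change of 0.63, Pou4f1 at 0.97, Synpo2 at 0.55, Plekhg1 at 1.44, Tac2 at -0.82 and Gpr151 at -0.67, each with the sign it had in all 6 libraries. Without Sham2 they were at -0.04 (Lef1), -0.06 (Pou4f1), -0.10 (Synpo2), 0.76 (Plekhg1), -0.36 (Tac2) and -1.20 (Gpr151). In bulk tissue, a change in the number of cells of a type and a change in RNA per cell cannot be told apart.

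**Figure D2:**
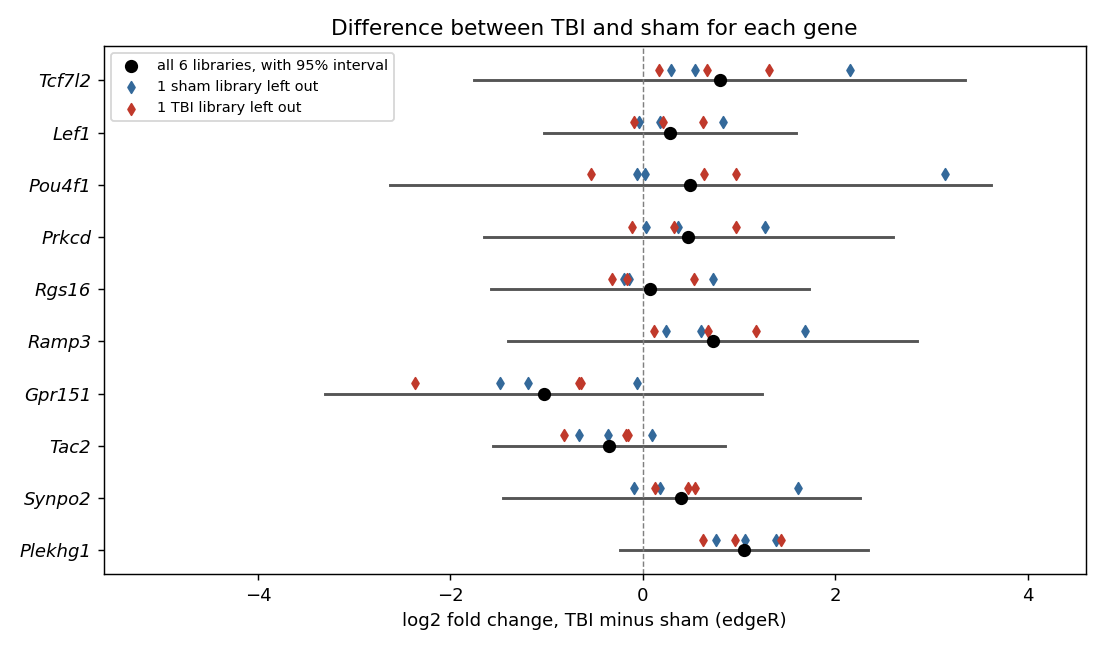
Log2 fold change of TBI against sham for each gene (horizontal axis), from all 6 libraries with its 95% interval (black) and with 1 sham (blue) or 1 TBI (red) library left out. Every interval spans 0, and 6 genes have points on both sides of 0 when 1 library is left out.

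The members varied more between libraries than most genes did, also within the groups. The SD of log2 CPM within groups, pooled over sham and TBI, was 0.731 (Tac2) to 2.02 (Pou4f1) with a median of 1.36, against a median of 0.320 for all genes tested. The SD of log2 CPM over the 6 libraries was 0.675 (Tac2) to 1.94 (Pou4f1), with a median of 1.34, against a median of 0.326 for all genes tested. The highest library was over 4 times the lowest in 8 of 10 members and in 18.0% of all genes, and the exceptions were Lef1 and Tac2. Such a range was not particular to the members. It was found in 12 of 15 other thalamic, 10 of 13 habenular and 4 of 4 reticular thalamic genes. It was also found in 8 of 8 choroid plexus, 7 of 7 striatal and 8 of 10 hippocampal neuron genes. Fewer had it among neocortical (3 of 8), oligodendrocyte and microglial (2 of 8 each), and endothelial and mural genes (1 of 8 each).

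**Figure D3:**
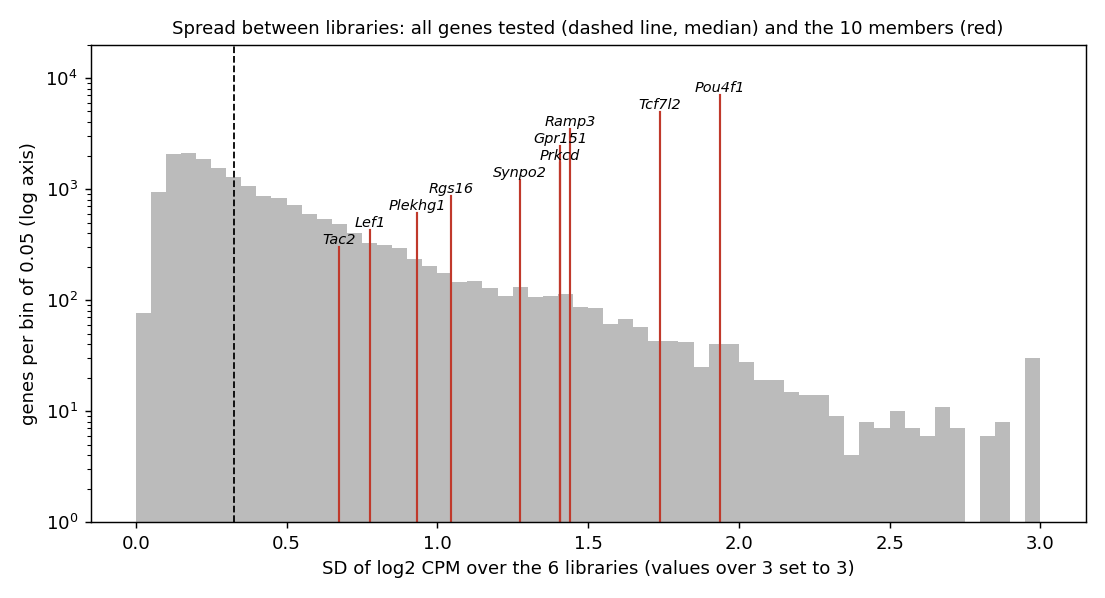
Number of genes (vertical axis, log scale) by the SD of log2 CPM over the 6 libraries (horizontal axis, values over 3 set to 3), with the 10 members as red lines and the median of all genes tested as a dashed line. Every member lies to the right of the dashed line at 0.326.

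In 8 members (Tcf7l2, Prkcd, Lef1, Rgs16, Synpo2, Ramp3, Plekhg1 and Pou4f1) the 3 highest libraries were Sham3, TBI2 and TBI3. This set of libraries was picked after the values were seen, and 8.18% of all genes tested shared it. The same 8 members had the order Sham3, Sham1, Sham2 within the sham group (18.2% of all genes tested), and TBI1 as the lowest TBI library (38.7%). That sham order was also found in 12 of 15 other thalamic, 8 of 13 habenular and 7 of 8 choroid plexus genes, and TBI1 was the lowest TBI library in 12, 9 and 5 of these and in 8 of 10 hippocampal neuron genes. Pearson's r of log2 CPM between pairs of these 8 ranged from 0.487 (Rgs16 and Synpo2) to 0.993 (Tcf7l2 and Lef1), with a median of 0.876 over 28 pairs. Each r rests on the same 6 libraries. With these 8, Tac2 had r of -0.451 to 0.061 and Gpr151 of -0.033 to 0.55.

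The mean log2 CPM of the 10 members, relative to the mean of the 6 libraries, was -0.50 in Sham1, -1.29 in Sham2 and 1.16 in Sham3. Among TBI libraries it was -0.91 (TBI1), 0.52 (TBI2) and 1.03 (TBI3). Sham3 and Sham2, both sham-operated, were thus the extremes, 2.45 apart on the log2 scale.

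Of 15 other thalamic genes, 10 had the same 3 highest libraries: Slc17a6, Ntng1, Gbx2, Lhx9, Shox2, Tnnt1, Calb2, Rora, Vav3 and Slitrk6. Slc17a6, the vesicular glutamate transporter of thalamic neurons, was at 44.3, 19.1 and 131.7 CPM in sham and at 12.9, 121.0 and 177.4 CPM in TBI libraries. Shox2, a homeobox factor, was at 6.35, 0.10 and 19.1 CPM in sham and at 0.588, 16.9 and 25.6 CPM in TBI libraries. Both had the same order of libraries as Tcf7l2, apart from the places of Sham2 and TBI1 in Slc17a6. Of these 15 genes, 13 were higher in TBI by sign and 0 were called by edgeR or DESeq2. Foxp2 (1.47) and Cit (1.06) had an unadjusted p under 0.05 by edgeR, 2 of 15 genes against 4.29% of all genes. Both were highest in TBI1, the library with high striatal genes, where Foxp2 was at 20.5 CPM and Cit at 122.4 CPM. Groups that did not overlap were found in 10.2% of all genes, and in both of these genes every TBI library lay above every sham library. Their edgeR log2 fold changes were 1.28 and 0.95 without TBI1 and 1.19 and 0.88 without Sham2. In these fits the unadjusted p was above 0.05 by edgeR and below it by DESeq2 for both genes.

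Of 13 habenular genes in a further list, which includes Tac2, 3 had those highest libraries (Chrna3, Chrnb4 and Gng8). Chrna3 and Chrnb4, nicotinic receptor subunits of the medial habenula, were at most 5.76 and 2.40 CPM. Chrna5, another such subunit, was at 4.86, 3.99 and 4.40 CPM in sham and at 0.735, 2.31 and 1.04 CPM in TBI libraries, with groups that did not overlap (log2 fold change -1.70, SE 0.462, edgeR adjusted p = 0.982). It was -1.40 without TBI1 and -1.77 without Sham2. The cholinergic genes Chat (16.2 CPM), Slc18a3 (11.1 CPM) and Slc5a7 (30.5 CPM) were highest in TBI1, the library with high striatal genes, and were at most 3.54 CPM in any other. In this list 7 genes were higher in TBI and 6 lower by sign, and 0 were called by either tool. Chrna5 was the 1 gene with an unadjusted p under 0.05 by edgeR, and its DESeq2 adjusted p was 0.144.

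Of 4 genes of the reticular thalamic nucleus, a GABAergic shell around the thalamus, Six3 was at 1.63, 0.947 and 4.43 CPM in sham and at 45.3, 6.38 and 9.33 CPM in TBI libraries. Every TBI library lay above every sham library, and TBI1 far above the other TBI libraries. Six3 was called by DESeq2 (log2 fold change 3.12 by edgeR, DESeq2 adjusted p = 0.0306) and not by edgeR (adjusted p = 0.982). The call was lost without TBI1 (1.75 by edgeR, DESeq2 adjusted p = 0.507) and without Sham2 (2.75 by edgeR, DESeq2 adjusted p = 0.719). Six3 is also expressed in the striatum. Pvalb, the calcium-binding protein of fast-spiking neurons, was at 470.7 CPM in TBI3 and at 38.5 to 98.0 CPM in the others, and was the 1 gene of the 4 with Sham3, TBI2 and TBI3 as its 3 highest libraries. DESeq2 called it only in the fit without TBI1 (log2 fold change 2.28, adjusted p = 0.0386), where TBI3 was 1 of the 2 TBI libraries, and not with all 6 libraries (adjusted p = 0.954) or without Sham2. Ecel1 was at 1.36, 20.1 and 4.64 CPM in sham and at 47.1, 4.08 and 4.27 CPM in TBI libraries, and Spp1, highest in Sham2 at 98.8 CPM, had a log2 fold change of -0.35. Of the 4 genes, 3 were higher in TBI by sign and 1 lower, and 0 were called by edgeR.

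Of 11 TCF/LEF family and Wnt target genes, 1 (Notum, a secreted Wnt inhibitor) had the 3 highest libraries of the members. Axin2, a common target of β-catenin, ranged from 11.0 CPM in Sham2 to 21.3 CPM in Sham1, and Ctnnb1, which encodes β-catenin, from 321.2 CPM in Sham1 to 540.3 CPM in TBI2. Lgr5, a receptor for R-spondins, was at 1.33, 0.598 and 1.09 CPM in sham and at 3.09, 2.69 and 7.25 CPM in TBI libraries. It was called by DESeq2 (log2 fold change 2.10 by edgeR, DESeq2 adjusted p = 0.0700) and not by edgeR (adjusted p = 0.982). Every TBI library lay above every sham library. By DESeq2 the log2 fold change was 2.29 without TBI1 (adjusted p = 0.117) and 1.83 without Sham2 (adjusted p = 0.242), so the call was lost in both while the difference stayed of similar size. In this list 8 genes were higher and 3 lower by sign, with 0 called by edgeR and Tcf7l1 and Lgr5 at an unadjusted p under 0.05.

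**Figure D4:**
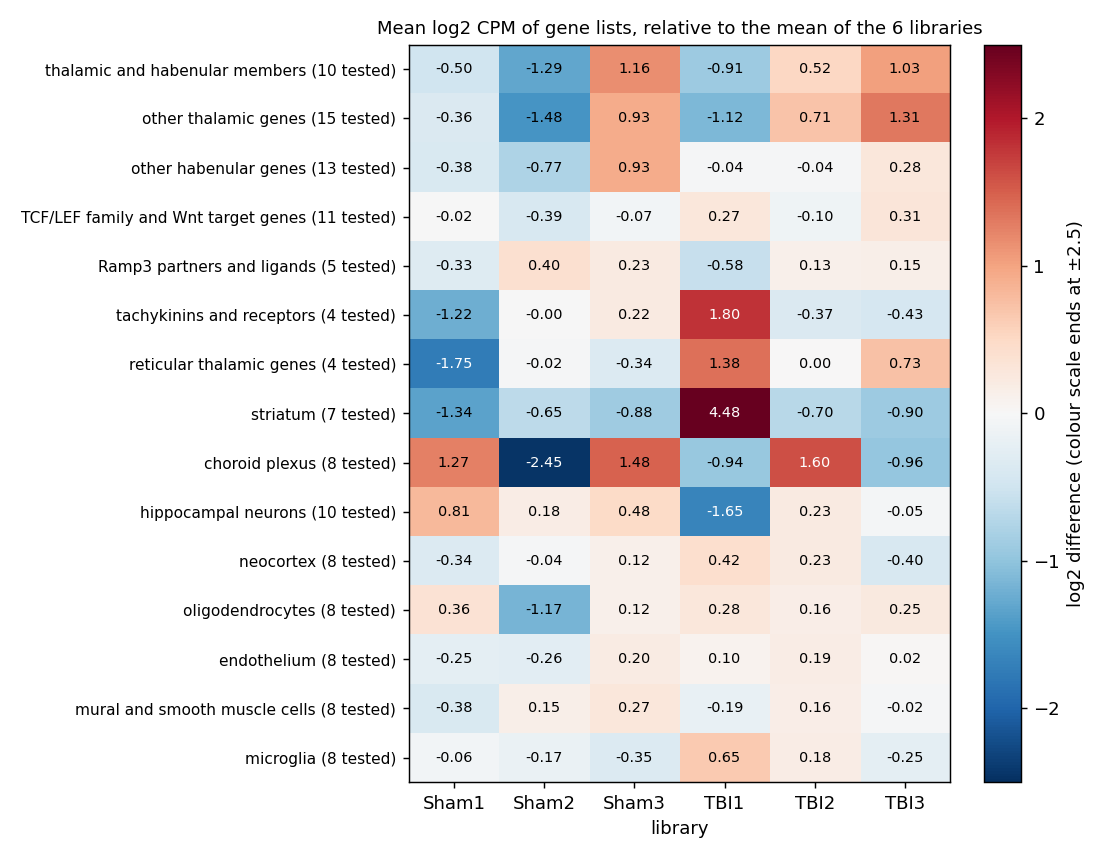
Mean log2 CPM of each gene list (rows, with the number of genes tested) in each library (columns), relative to the mean of the 6 libraries. The members and the other thalamic genes are high in Sham3, TBI2 and TBI3, the striatal genes in TBI1 alone, and the choroid plexus genes in Sham1, Sham3 and TBI2.

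Choroid plexus genes ranked the libraries in part like the members. The summed level of 8 choroid plexus genes, led by Ttr, was 2034 CPM in Sham1, 2087 CPM in Sham3 and 2366 CPM in TBI2, against 54.4, 243 and 261 CPM in Sham2, TBI1 and TBI3. None of its 8 genes was at 0 in every library, and Slc4a5 was at 0 in Sham2. Sham3 and TBI2 were therefore high in both the members and the choroid plexus, and Sham2 and TBI1 low in both, while TBI3 was high in the members alone and Sham1 in the choroid plexus alone. Sums over 8 genes each varied less for endothelium (180 to 244 CPM), mural cells (155 to 220 CPM), neocortex (180 to 338 CPM) and microglia (373 to 721 CPM). Endothelial Slco1a4 and Ly6c1 and mural Myh11 and Rgs5 shared the 3 highest libraries of the members. The part of each tissue in the members' levels was not tested.

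Per kilobase of exon, the levels over the 6 libraries were highest for Ramp3 (17.9 ± 13.5 CPM per kb, SD), Rgs16 (12.8 ± 7.43) and Prkcd (12.7 ± 9.11). Tcf7l2 (3.87 ± 3.31), Tac2 (3.80 ± 1.81), Plekhg1 (2.92 ± 1.87) and Gpr151 (2.25 ± 2.14) followed, and then Synpo2 (1.68 ± 1.03), Lef1 (1.22 ± 0.604) and Pou4f1 (0.429 ± 0.448). Of the 9 neighbouring pairs in this order, 2 kept their order in each of the 6 libraries (Prkcd above Tcf7l2 and Lef1 above Pou4f1), and the other pairs kept it in 2 to 5. Ramp3 exceeded Rgs16 in 5 libraries, Rgs16 exceeded Prkcd in 3, and Tcf7l2 exceeded Tac2 in 2.

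**Figure D5:**
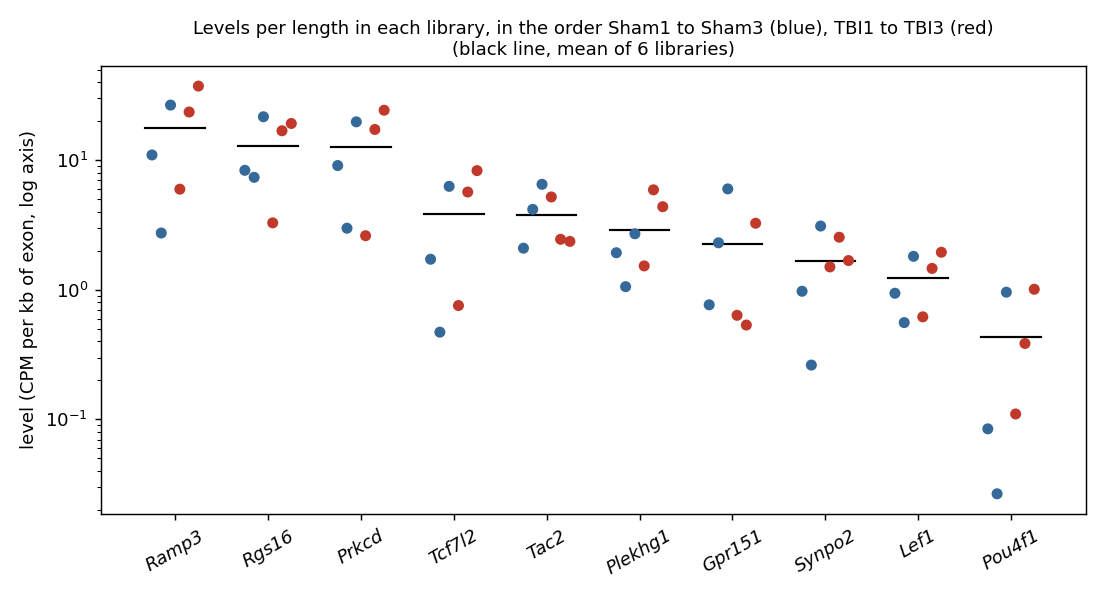
Level per kilobase of exon (vertical axis, CPM per kb, log scale) of the 10 genes in order of their mean over 6 libraries (black lines), with sham libraries in blue and TBI libraries in red. Ramp3, Rgs16 and Prkcd lead, and the spread of each gene covers the means of its neighbours in most places.

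Genes outside the list were ranked by the correlation of their log2 CPM with the mean of the members over the 6 libraries. The 8 highest were Gm10108, Arhgap24, Nap1l3, Igip, Abhd18, Zrsr1, Gm42732 and Defb1, with r of 0.984 to 0.999. Their own range was narrow. Arhgap24, a GTPase-activating protein, went from 6.75 CPM in Sham2 to 15.0 CPM in Sham3 (2.22-fold), and the others apart from Defb1 varied 1.21-fold to 1.49-fold. Defb1 was at 0 in Sham2 and TBI1 and at most 1.04 CPM. With 6 points and 18795 genes, r this high says only that these genes ranked the libraries alike.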

How the data were processed

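RNA sequencing of the hippocampus covered 3 sham and 3 TBI mice. Per the paper's methods and the submitters' processing notes, the authors used FastQC for read quality, HISAT2 for alignment to GRCm38, StringTie for quantification and DESeq2 for testing. The versions of FastQC, HISAT2 and StringTie, the strandedness and how StringTie output became counts are not given in the sources used here. Each deposited value is an estimated count of 1 gene, a whole number that was not normalized. Values of 4 occurred 5109 times and of 3 only 2325 times, so counts do not equal reads, and no counting interval was given.

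Of 52550 identifiers, 52403 were matched without version to GENCODE vM21 symbols and 147 were not. Counts were filtered with filterByExpr, scaled by TMM and tested in R 4.3.3 with edgeR 4.0.16 (quasi-likelihood, Benjamini-Hochberg over all genes), which used limma 3.58.1. DESeq2 1.42.0 was the alternative. Log2 CPM used a prior count of 2. The edgeR test was tested on simulated data. Every member, any gene of the related lists and the 8 genes most correlated with the members' mean could be named, and of other lists up to 4 genes with the highest mean CPM. C1ql2, Timp1, Slc4a5, Slco1a4, Ly6c1, Myh11 and Rgs5 were named after their values were seen. The members and lists were chosen with earlier results of these data known. The alternatives were DESeq2, other scalings and filters, stricter or looser thresholds, each library left out and a replicate block. DESeq2 without TBI1 and without Sham2 was added after seeing the data. The result of 1 striatal gene is not reported here, and the sums leave it out.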

Additional observations from a re-analysis of the deposited data

How the results depend on the processing

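The edgeR count of called genes was 0 under all other scalings, filters and thresholds tried. DESeq2 called 46 genes with its defaults, 43 on the filtered genes without independent filtering and, as alternatives chosen after seeing the data, 43 with its defaults and TBI1 left out and 63 with Sham2 left out. With 1 library left out, edgeR called 0 to 1 genes (1 without TBI1). In each of these settings 0 members were called. The members' median log2 fold change ran from -0.10 (without TBI3) to 1.33 (without Sham3). Signs turned for 6 members when 1 library was left out: Prkcd from -0.11 to 1.27, Lef1 from -0.097 to 0.83, Rgs16 from -0.32 to 0.73, Synpo2 from -0.096 to 1.61, Tac2 from -0.82 to 0.092 and Pou4f1 from -0.54 to 3.14. DESeq2 without Sham2 gave -0.048 for Lef1, -0.21 for Rgs16, -0.11 for Synpo2 and -0.066 for Pou4f1. Tcf7l2 (0.17 to 2.15), Ramp3 (0.12 to 1.68), Plekhg1 (0.63 to 1.44) and Gpr151 (-2.37 to -0.06) kept their signs in every setting run.

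With the replicate number as a block the median was 0.58, with 7 members higher and 3 lower, 0 genes called, and Rgs16 at -0.11. Deviations of same-numbered libraries correlated at -0.10, -0.065 and 0.153, and those of unlike-numbered libraries at -0.182 to 0.21. No pairing by number was evident, and 3 libraries a group are too few to show that there was none. A filter of 10 counts in every library removed Pou4f1. With 3 mice a group and this spread, the 95% intervals of all 10 members span 0, and that of Pou4f1 is the widest (-2.63 to 3.61). The cause of the spread was not tested.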
